A study of Homo sapiens with 8 samples.

Results

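Genes of the glycosaminoglycan-bearing matrix and cell surface, 10 in number, were followed across the 8 RNA-seq libraries of the study. They were the linker enzyme XYLT1, the secreted proteoglycans VCAN, SPOCK1, BGN and DCN, the membrane proteoglycans SDC1, SDC4 and GPC1, and the hyaluronan synthases HAS2 and HAS3. They were taken by symbol from 25166 genes in the deposited table, where they have 21 of 48175 transcripts. The set was chosen by function with measured values of the same libraries in view: XYLT1, SPOCK1 and DCN were selected on their FPKM and fold changes on TGF-β or SOX4 knockdown, so those 3 are described without a p-value, and where they stand in a count of called genes nothing is read from it. The libraries came from the human line HMLE, mammary epithelial cells that had been immortalized, and every group had been transduced with a lentivirus and selected with 0.5 µg/mL puromycin. Cells carrying 1 shRNA to SOX4, which encodes a SoxC transcription factor, were given TGF-β for 16 h or left untreated, and cells carrying a scrambled shRNA were given TGF-β for 16 h or left untreated. Each of these 4 groups had 2 libraries, and the labels do not say that they came from separate cultures, so a p-value measures only the spread between these libraries, which may be technical.

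Proteoglycans are core proteins that carry long sulfated sugar chains. Xylosyltransferases such as XYLT1 add the first sugar, a xylose on a serine of the core, and the chain is then built as chondroitin or dermatan sulfate or as heparan sulfate. Hyaluronan is a related chain that is made without a core protein, at the plasma membrane, by the HAS enzymes, and versican, the product of VCAN, binds it. TGF-β is known to induce matrix proteoglycans in many cell types, and decorin and biglycan, the products of DCN and BGN, can bind TGF-β.

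The first sequences shown are splice junctions, since they define the forms of versican. The VCAN transcripts with reads were told apart by 1 exon, number 7 of 15 (chr5:82815168-82818128, plus strand, GRCh37), which codes for a chondroitin sulfate attachment region. The V0 form holds this exon and the V1 form joins exon 6 to exon 8. The junctions below show the last 30 bases of the left exon in lower case and the first 30 of the right exon in capitals, read from GRCh37.
V0, exon 6 to exon 7: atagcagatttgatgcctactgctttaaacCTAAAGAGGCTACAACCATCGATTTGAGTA
V0, exon 7 to exon 8: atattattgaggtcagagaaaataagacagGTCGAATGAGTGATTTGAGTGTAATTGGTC
V1, exon 6 to exon 8: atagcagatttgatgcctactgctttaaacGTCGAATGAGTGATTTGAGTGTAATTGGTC

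The 250 bases before the annotated start of XYLT1 (chr16:17470961-17471210, minus strand), VCAN (chr5:83471494-83471743, plus strand) and HAS3 (chr16:69107290-69107539, plus strand) are shown for a member with a large response to TGF-β, a member with a large difference on knockdown and a member that fell with TGF-β. They are from RefSeq on GRCh38.p14 and run 5′ to 3′ on the gene's strand. On GRCh37 the VCAN window is chr5:82767313-82767562, directly before exon 1 (from 82767563). The GENCODE span of VCAN given below begins earlier, at 82767437, so part of the window lies inside that span. Capitals mark ACAAAG, a core of SOX sites, CAGAC, a SMAD box, or TGANTCA, the AP-1 site, on either strand.
XYLT1: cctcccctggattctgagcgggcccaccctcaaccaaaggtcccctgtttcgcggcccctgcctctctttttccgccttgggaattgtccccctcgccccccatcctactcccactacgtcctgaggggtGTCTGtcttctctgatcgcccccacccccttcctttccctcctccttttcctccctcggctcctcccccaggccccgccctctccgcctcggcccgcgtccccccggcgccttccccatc
VCAN: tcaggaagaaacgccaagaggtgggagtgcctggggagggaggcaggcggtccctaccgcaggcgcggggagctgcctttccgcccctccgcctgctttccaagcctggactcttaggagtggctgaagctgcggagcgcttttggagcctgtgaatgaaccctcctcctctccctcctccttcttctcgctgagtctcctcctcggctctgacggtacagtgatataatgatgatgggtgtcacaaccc
HAS3: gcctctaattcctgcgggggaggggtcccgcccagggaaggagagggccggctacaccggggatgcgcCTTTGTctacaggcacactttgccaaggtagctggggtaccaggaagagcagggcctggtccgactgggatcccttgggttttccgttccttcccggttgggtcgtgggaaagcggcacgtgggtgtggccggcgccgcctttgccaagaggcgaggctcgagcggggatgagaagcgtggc

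The XYLT1 window held CAGAC once, on the opposite strand, the HAS3 window held ACAAAG once, on the opposite strand, and the VCAN window held none of the 3 motifs. Over the 27305 windows of the same length in the table, 13.7% held ACAAAG, 37.8% held CAGAC and 6.6% held TGANTCA. The motif letters do not overlap each other in these windows, and a match or its absence is a description of the letters only.

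Values are FPKM, that is, read numbers divided by the length of the transcript and the size of the library, which corresponded to 12.6 to 16.8 M reads. In 34.1% of the table's entries the decimal mark had been lost, so each such entry had up to 3 readings that differ by factors of 10. The marks were put back by finding readings that stand for whole numbers of reads and weighing them, with a posterior of at least 0.95 required. Tests used limma on log2(FPKM + 1) over 5099 genes with at least 1 FPKM in at least 2 libraries, in 1 fit of the 4 groups. These were genes with 1 transcript in the table and marks restored from whole reads, joined by VCAN, HAS3 and DCN. Other genes with several transcripts were left out whatever their level, so shares of all genes below are shares of these 5099. A gene is called changed at a Benjamini-Hochberg adjusted p under 0.05 over all of them. Of the 10 genes, 9 entered this fit, and SDC1 did not. VCAN reached 1 FPKM only in scrambled-shRNA libraries, DCN only in the untreated and HAS2 only in the TGF-β-treated ones of these, so they entered the fit through the groups where they are high. For VCAN and HAS2 the adjusted p without any floor on FPKM, over 9310 genes, is therefore given too. SOX4 itself had 2.37 and 1.88 FPKM with TGF-β and 0.923 and 1.02 FPKM without in SOX4-shRNA cells, against 18.7 and 17.6 FPKM with TGF-β and 8.74 and 8.04 FPKM without in scrambled-shRNA cells. Among the libraries' cell markers, the endothelial list (4 genes) summed to at most 0.272 FPKM and the leukocyte list (4 genes) to at most 0.451 FPKM in any library, with CDH5 and CD3E at 0, and the basal mammary epithelial markers KRT5, KRT14, KRT17, TP63 and ITGB4 were all above 1 FPKM. Of the 5 epithelial markers KRT19 was at most 0.376 FPKM and the other 4 were higher. The values of KRT5, TP63, ITGB4, KRT8 and KRT18 are of 1 transcript each, taken without whole reads and with no limit on the posterior.

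**Figure D1:**
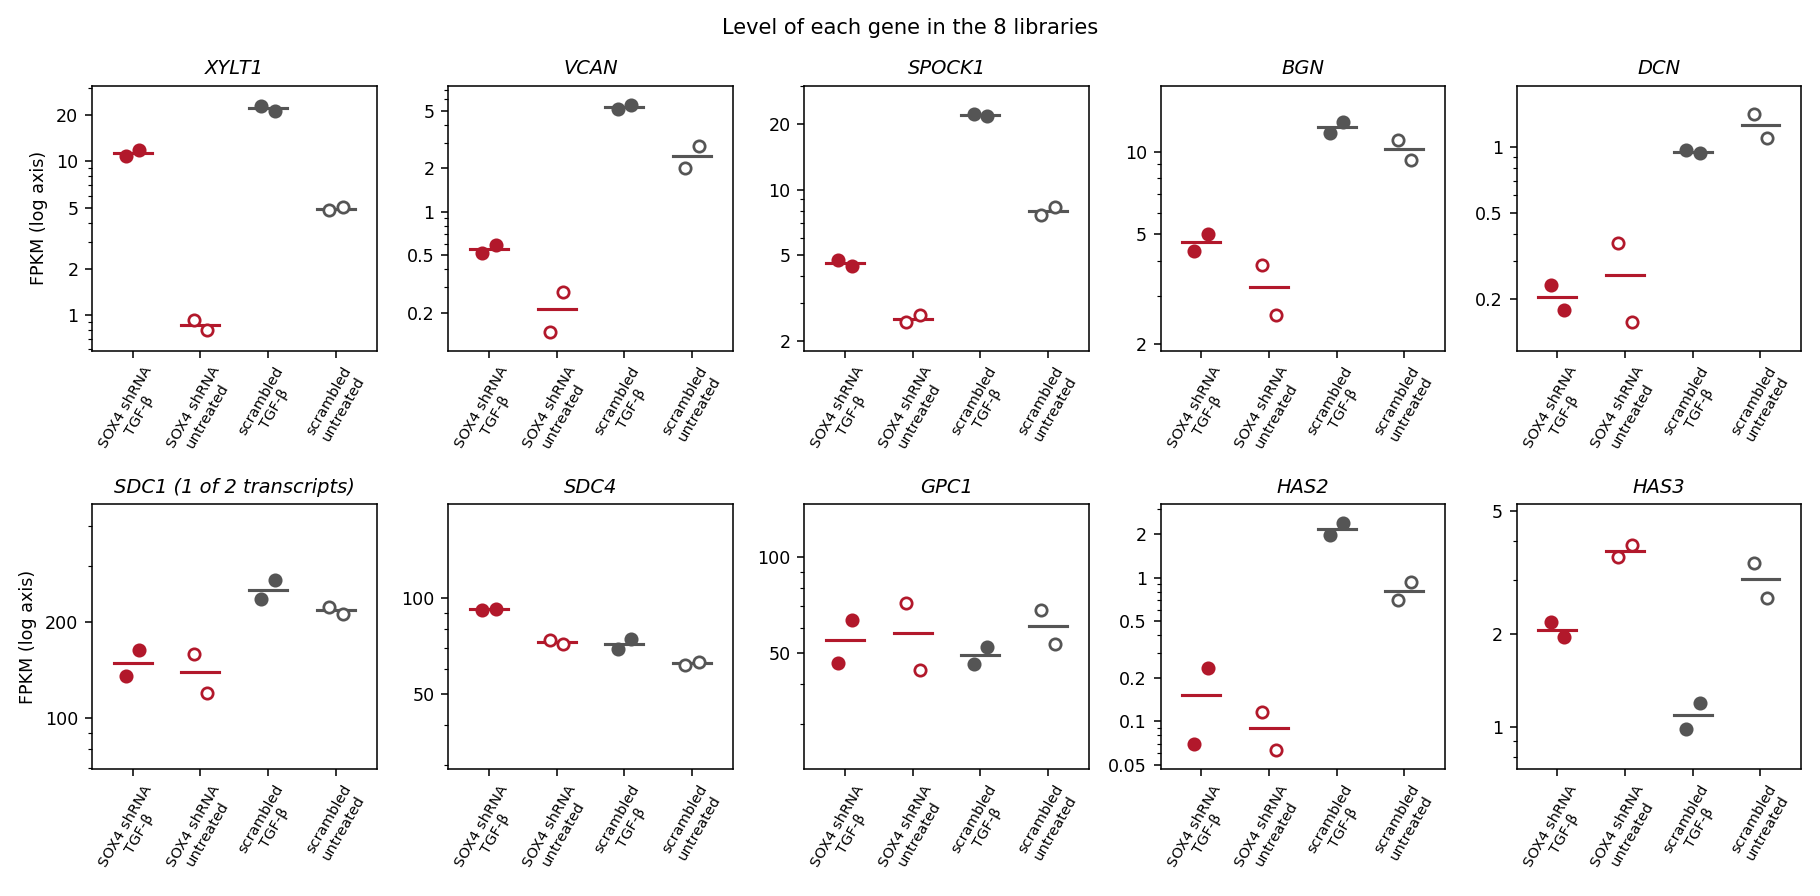
FPKM (log axes that differ between panels) of the 10 genes in each of the 8 libraries; points are libraries, lines are group means, red is SOX4 shRNA, grey is scrambled shRNA, and filled points had TGF-β. XYLT1 is at 0.937 and 0.797 FPKM in untreated SOX4-shRNA cells and at 10.9 and 11.9 FPKM in those given TGF-β, and for HAS3 the TGF-β-treated libraries of each kind of cell lie below the untreated ones.

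XYLT1 catalyses the step at which chain assembly on a core protein begins. The gene spans 17195626 to 17564817 of chromosome 16 (minus strand, 12 exons, GRCh37). Its level was 10.9 and 11.9 FPKM in TGF-β-treated SOX4-shRNA cells, 0.937 and 0.797 FPKM in untreated SOX4-shRNA cells, 22.9 and 21.3 FPKM in scrambled-shRNA cells given TGF-β, and 4.84 and 5.04 FPKM in untreated scrambled-shRNA cells. No 2 groups overlapped, and the order ran from untreated SOX4-shRNA cells upward through untreated scrambled-shRNA cells and TGF-β-treated SOX4-shRNA cells to TGF-β-treated scrambled-shRNA cells. These values rest on 113 to 3117 reads per library. The ratio of group means with TGF-β over without was 13.2 in SOX4-shRNA cells and 4.48 in scrambled-shRNA cells, and on the log2(FPKM + 1) scale the responses were 2.73 ± 0.11 (SE) and 1.96 ± 0.11. The ratio of SOX4-shRNA over scrambled-shRNA means was 0.516 with TGF-β and 0.176 without, that is, log2 fold changes of -0.90 ± 0.11 and -1.67 ± 0.11. As a ratio, XYLT1 was thus nearer to its scrambled-shRNA level in TGF-β-treated than in untreated cells. In FPKM the means were further apart with TGF-β (11.4 against 22.1) than without (0.867 against 4.94). Without replicate 1 or replicate 2 of TGF-β-treated scrambled-shRNA cells the log2 difference on knockdown with TGF-β was -0.85 and -0.95. The log2 difference between the 2 responses was 0.77 ± 0.15 (SE), and it grew with a smaller added constant, to 1.44 ± 0.19 with 0.1 FPKM added and 1.56 ± 0.19 on whole reads with limma-voom. An exon of another gene, ENSG00000261448, lies on the opposite strand over exons of XYLT1, and since the sources used here do not give whether strand was used in counting, reads of the 2 cannot be told apart.

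Versican is a large chondroitin sulfate proteoglycan that binds hyaluronan, and VCAN spans 82767437 to 82878122 of chromosome 5 (plus strand, 15 exons, GRCh37). The sum of V0 and V1 was 0.518 and 0.584 FPKM in TGF-β-treated SOX4-shRNA cells, 0.148 and 0.279 FPKM in untreated SOX4-shRNA cells, 5.12 and 5.52 FPKM in scrambled-shRNA cells given TGF-β, and 2.02 and 2.83 FPKM in untreated scrambled-shRNA cells. All 4 SOX4-shRNA libraries were below all 4 scrambled-shRNA libraries, and within each kind of cell the TGF-β-treated pair was above the untreated pair. VCAN fell on knockdown, with log2(FPKM + 1) fold changes of -2.03 ± 0.15 with TGF-β (limma adjusted p = 0.00068, and 0.0048 without the floor) and -1.49 ± 0.15 without (adjusted p = 0.0024, and 0.012 without the floor). The ratios of means were 0.104 and 0.0879 on the FPKM scale, since adding 1 FPKM understates the change of a gene at this level. VCAN rose with TGF-β in scrambled-shRNA cells, by 0.89 ± 0.15 (adjusted p = 0.017, and 0.043 without the floor), while in SOX4-shRNA cells the value was 0.36 ± 0.15 (adjusted p = 0.20). The rise was not called without replicate 1 or 2 of the TGF-β-treated or replicate 1 of the untreated scrambled-shRNA cells (0.72 to 0.94, adjusted p = 0.11 to 0.13), with 0.1 FPKM added (1.12, adjusted p = 0.06), or in the fit of 12013 genes that also takes genes without whole reads (adjusted p = 0.071).

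The ratio of VCAN with TGF-β over without was 2.59 in SOX4-shRNA cells and 2.19 in scrambled-shRNA cells. The difference of the responses was -0.54 ± 0.21 on the log2(FPKM + 1) scale (unadjusted p = 0.037, adjusted p = 0.99). It was -0.033 ± 0.40 with 0.1 FPKM added and 0.23 ± 0.39 on whole reads, where VCAN rose in SOX4-shRNA cells too (limma-voom, 1.38, adjusted p = 0.044). Untreated SOX4-shRNA libraries held 22 and 41 VCAN reads. An antisense gene, VCAN-AS1, overlaps exons of VCAN, and their reads cannot be told apart.

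The digits of the deposited values placed the lengths of the 2 VCAN transcripts at 9455 and 12416 nt. Their difference, 2961 nt, is the length of exon 7, whose junctions are printed above. The V1 form had 0.445 and 0.428 FPKM in TGF-β-treated SOX4-shRNA cells, 0.0749 and 0.257 FPKM in untreated SOX4-shRNA cells, 4.32 and 4.41 FPKM in scrambled-shRNA cells given TGF-β, and 1.55 and 2.32 FPKM in untreated scrambled-shRNA cells. The V0 form had 0.0725 and 0.156 FPKM in TGF-β-treated SOX4-shRNA cells, 0.0729 and 0.0218 FPKM in untreated SOX4-shRNA cells, 0.795 and 1.11 FPKM in scrambled-shRNA cells given TGF-β, and 0.463 and 0.508 FPKM in untreated scrambled-shRNA cells. Both forms were lower in every SOX4-shRNA library than in every scrambled-shRNA library. V1 made up 86.0% and 73.3% of the sum in TGF-β-treated and 50.7% and 92.2% in untreated SOX4-shRNA libraries, against 84.5% and 79.9% in TGF-β-treated and 77.0% and 82.1% in untreated scrambled-shRNA libraries. The shares overlapped between the groups and were widest apart where VCAN had the fewest reads. The other 2 VCAN transcripts in the table did not exceed 0.000249 FPKM in any library. The split between forms is the authors' estimate, since most reads of a gene fall in exons that its transcripts share.

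**Figure D2:**
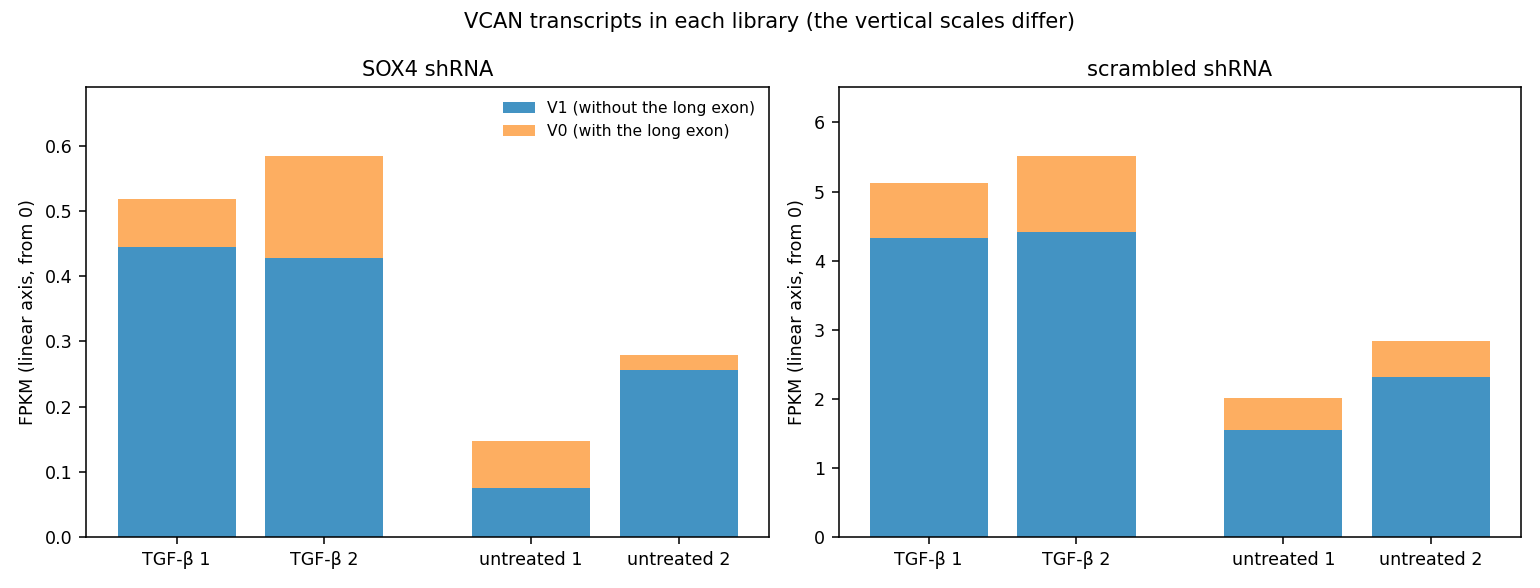
FPKM of the V1 and V0 transcripts of VCAN, stacked, in each library (bars; linear axes from 0 that differ between the panels). V1 is the larger part in every library, and the bars of SOX4-shRNA cells end at 0.148 to 0.584 FPKM, those of scrambled-shRNA cells at 2.02 to 5.52 FPKM.

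SPOCK1 encodes testican-1, a secreted proteoglycan with chondroitin and heparan sulfate chains. The gene spans 136310987 to 136934068 of chromosome 5 (minus strand, 11 exons, GRCh37). It had 4.75 and 4.42 FPKM in TGF-β-treated SOX4-shRNA cells, 2.44 and 2.63 FPKM in untreated SOX4-shRNA cells, 22.3 and 21.9 FPKM in scrambled-shRNA cells given TGF-β, and 7.64 and 8.30 FPKM in untreated scrambled-shRNA cells. TGF-β-treated libraries were above untreated ones in both kinds of cell, and every SOX4-shRNA library, TGF-β included, was below the untreated scrambled-shRNA libraries. All 8 entries had lost the mark, and the readings given held 0.955 of the posterior, the lowest of the fitted members. The ratio of means with TGF-β over without was 1.81 in SOX4-shRNA cells and 2.77 in scrambled-shRNA cells, with log2 responses of 0.66 ± 0.10 and 1.36 ± 0.10 (SE). The knockdown difference was -2.05 ± 0.10 with TGF-β and -1.34 ± 0.10 without. The difference of the responses was -0.71 ± 0.15 and stayed between -0.62 and -0.71 with 0.5 or 0.1 FPKM added or on whole reads. The sign was opposite to that of XYLT1 on all 4 scales.

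Biglycan and decorin are small leucine-rich proteoglycans of the matrix. BGN (chromosome X, 152760438 to 152775004, plus strand, GRCh37) had 4.37 and 5.0 FPKM in TGF-β-treated SOX4-shRNA cells, 3.88 and 2.56 FPKM in untreated SOX4-shRNA cells, 11.7 and 12.8 FPKM in scrambled-shRNA cells given TGF-β, and 11.1 and 9.32 FPKM in untreated scrambled-shRNA cells. The 4 SOX4-shRNA libraries all lay below the 4 scrambled-shRNA libraries. BGN fell on knockdown, with log2(FPKM + 1) fold changes of -1.22 ± 0.17 with TGF-β (limma adjusted p = 0.0097) and -1.42 ± 0.17 without (adjusted p = 0.0059). For TGF-β the values were 0.45 ± 0.17 in SOX4-shRNA cells (adjusted p = 0.16) and 0.25 ± 0.17 in scrambled-shRNA cells (adjusted p = 0.42). The call with TGF-β was lost without replicate 1 or 2 of TGF-β-treated scrambled-shRNA cells or replicate 1 of TGF-β-treated SOX4-shRNA cells (adjusted p = 0.058 to 0.11), and the call without TGF-β was lost without replicate 1 of untreated scrambled-shRNA cells (adjusted p = 0.063), while the fold changes stayed between -1.14 and -1.31.

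DCN (chromosome 12, 91534261 to 91576994, minus strand, GRCh37) was the lowest of the 4 secreted proteoglycans in scrambled-shRNA cells. Summed over its 6 transcripts it had 0.231 and 0.177 FPKM in TGF-β-treated SOX4-shRNA cells, 0.362 and 0.156 FPKM in untreated SOX4-shRNA cells, 0.975 and 0.936 FPKM in scrambled-shRNA cells given TGF-β, and 1.42 and 1.10 FPKM in untreated scrambled-shRNA cells. Again no SOX4-shRNA library reached a scrambled-shRNA library, and DCN, unlike VCAN and SPOCK1, had no higher mean with TGF-β than without in either kind of cell. The knockdown ratio of means was 0.214 with TGF-β and 0.206 without (log2(FPKM + 1) differences of -0.70 ± 0.15 and -0.84 ± 0.15, SE). With 1 library left out these ran from -0.67 to -0.73 with TGF-β and from -0.73 to -0.96 without. In scrambled-shRNA cells the transcript NM_133503 held 0.682 to 1.11 FPKM of the sum, and in SOX4-shRNA cells at most 0.103 FPKM. NM_133505 went the other way, with 0.128 and 0 FPKM in TGF-β-treated and 0.224 and 0.156 FPKM in untreated SOX4-shRNA cells. It had at most 0.000391 FPKM in scrambled-shRNA cells.

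Decorin, versican and biglycan are abundant in fibroblasts, so fibroblast markers are given beside them. LUM and PDGFRA, 2 of the 6 fibroblast markers, were at most 0.105 and 0.103 FPKM in any library. The summed list ran from 25.6 to 28.02 FPKM in TGF-β-treated and 16.3 to 20.9 FPKM in untreated SOX4-shRNA cells, against 23.6 to 28.2 FPKM in TGF-β-treated and 21.6 to 25.7 FPKM in untreated scrambled-shRNA cells. Most of the sum was FBLN1, at 14.3 to 24.6 FPKM. That value is of 1 of its 4 transcripts, and its marks were restored without whole reads and with no limit on the posterior. COL3A1 fell on knockdown, with fold changes of -0.69 ± 0.13 with TGF-β (limma adjusted p = 0.033) and -1.31 ± 0.13 without (adjusted p = 0.0023), and PDGFRB and DPT were not called. Among the basal mammary epithelial markers KRT17 fell on knockdown too, at -1.02 ± 0.12 with TGF-β (adjusted p = 0.0056) and -1.28 ± 0.12 without (adjusted p = 0.0022), and KRT14 rose with TGF-β in SOX4-shRNA cells, at 0.82 ± 0.13 (adjusted p = 0.0092). The summed basal list, 5 genes, ran from 6705 to 6877 FPKM in TGF-β-treated and 5056 to 5941 FPKM in untreated SOX4-shRNA cells, against 7876 to 8030 FPKM in TGF-β-treated and 7119 to 7827 FPKM in untreated scrambled-shRNA cells. The part of these markers in the results was not tested, and fewer cells of a type and less RNA per cell cannot be told apart in bulk libraries.

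The membrane proteoglycans were the most abundant members. SDC4 and GPC1 were not called in any comparison of the fit described, and SDC1 did not enter that fit. Syndecan-4, the product of SDC4, is a heparan sulfate proteoglycan of focal adhesions. SDC4 (chromosome 20, 43953928 to 43977064, minus strand, GRCh37) had 92.1 and 92.7 FPKM in TGF-β-treated SOX4-shRNA cells, 74.1 and 71.6 FPKM in untreated SOX4-shRNA cells, 69.2 and 74.7 FPKM in scrambled-shRNA cells given TGF-β, and 61.9 and 63.3 FPKM in untreated scrambled-shRNA cells. The TGF-β-treated SOX4-shRNA pair was above the other 6 libraries and the untreated scrambled-shRNA pair below them. The knockdown values were 0.36 ± 0.10 with TGF-β (limma adjusted p = 0.10) and 0.22 ± 0.10 without (adjusted p = 0.28), and the TGF-β values were 0.34 ± 0.10 in SOX4-shRNA cells (adjusted p = 0.076) and 0.20 ± 0.10 in scrambled-shRNA cells (adjusted p = 0.26). With a replicate block whose numbers were crossed in the TGF-β-treated libraries, an alternative chosen after seeing the data, SDC4 was called for knockdown with TGF-β (adjusted p = 0.027) and for TGF-β in SOX4-shRNA cells (adjusted p = 0.020).

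Glypican-1 is a heparan sulfate proteoglycan held in the membrane by a lipid anchor. GPC1 (chromosome 2, 241375080 to 241407493, plus strand, GRCh37) had 46.4 and 63.5 FPKM in TGF-β-treated SOX4-shRNA cells, 71.6 and 44.2 FPKM in untreated SOX4-shRNA cells, 46.2 and 52.4 FPKM in scrambled-shRNA cells given TGF-β, and 68.0 and 53.3 FPKM in untreated scrambled-shRNA cells. On the log2(FPKM + 1) scale it was the fitted member with the widest spread between replicates (SE 0.25), at 2261 to 3977 reads per library. With 0.1 FPKM added, the SE of the difference of the responses was larger for HAS2 (0.62), DCN (0.55) and VCAN (0.40) than for GPC1 (0.36). For GPC1, replicate 1 was the higher of the untreated pairs and the lower of the TGF-β-treated pairs in both kinds of cell, an order that BGN showed too. The fold changes of GPC1 lay between -0.29 and 0.14 (limma adjusted p = 0.53 to 0.93), and 3 of the 4 changed sign when 1 library was left out.

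Syndecan-1, the product of SDC1, is the main syndecan of epithelial cells. SDC1 (chromosome 2, 20400558 to 20425194, minus strand, GRCh37) has 2 transcripts in the table, and its digits gave no whole reads for the gene. For one of them, NM_002997, the levels were 136 and 163 FPKM in TGF-β-treated SOX4-shRNA cells, 159 and 120 FPKM in untreated SOX4-shRNA cells, 236 and 270 FPKM in scrambled-shRNA cells given TGF-β, and 224 and 213 FPKM in untreated scrambled-shRNA cells. The first of these entries was intact, and the other 7 had lost the mark (posterior of the readings 0.962). All 4 SOX4-shRNA libraries were below the 4 scrambled-shRNA libraries. In the fit of 12013 genes that also takes genes without whole reads, the differences were -0.76 ± 0.16 with TGF-β (limma adjusted p = 0.12) and -0.66 ± 0.16 without (adjusted p = 0.15), and the TGF-β values were 0.11 ± 0.16 in SOX4-shRNA cells (adjusted p = 0.82) and 0.21 ± 0.16 in scrambled-shRNA cells (adjusted p = 0.58). The other transcript, NM_001006946, could not be settled. Its value in replicate 1 of untreated scrambled-shRNA cells was 1.497, 14.97 or 149.7 FPKM, and in replicate 2 it was 8.67, 86.7 or 867 FPKM, so no gene total is given.

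HAS2 and HAS3 synthesize hyaluronan, HAS2 being the form usually linked to mesenchymal cells. HAS2 (chromosome 8, 122624356 to 122653680, minus strand, GRCh37) had 0.0698 and 0.236 FPKM in TGF-β-treated SOX4-shRNA cells, 0.117 and 0.0629 FPKM in untreated SOX4-shRNA cells, 1.99 and 2.39 FPKM in scrambled-shRNA cells given TGF-β, and 0.698 and 0.928 FPKM in untreated scrambled-shRNA cells. The SOX4-shRNA libraries held 3 and 11 reads with TGF-β and 5 and 3 without, against 91 and 101 reads with and 36 and 36 without TGF-β in scrambled-shRNA cells. No SOX4-shRNA library reached a scrambled-shRNA library, and the TGF-β-treated and untreated SOX4-shRNA pairs overlapped. HAS2 fell on knockdown with TGF-β, with a log2(FPKM + 1) fold change of -1.47 ± 0.15 (limma adjusted p = 0.0024, and 0.005 without the floor), and it was called without each library in turn. Without TGF-β the value was -0.73 ± 0.15 (adjusted p = 0.037, and 0.044 without the floor), a call lost with the replicate block (adjusted p = 0.061), with only the compared groups (adjusted p = 0.10), in the fit of 12013 genes (adjusted p = 0.13), and without any scrambled-shRNA library or either untreated SOX4-shRNA library (-0.64 to -0.82, adjusted p = 0.074 to 0.20). The ratios of means were 0.0698 and 0.111.

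HAS2 rose with TGF-β in scrambled-shRNA cells by 0.82 ± 0.15 (limma adjusted p = 0.020, and 0.029 without the floor), and its mean with TGF-β was 2.70 times that without. In SOX4-shRNA cells the value was 0.078 ± 0.15 (adjusted p = 0.81). The rise was not called without either replicate of either scrambled-shRNA group (0.72 to 0.91, adjusted p = 0.072 to 0.16), with 0.1 FPKM added (1.33, adjusted p = 0.11) or in the fit of 12013 genes (adjusted p = 0.084). The difference of the responses was -0.74 ± 0.21 (unadjusted p = 0.0083, adjusted p = 0.99). On whole reads it was -0.87 ± 0.75, so the reads of SOX4-shRNA cells do not settle whether the responses differ as ratios. An antisense gene, HAS2-AS1, overlaps HAS2 exons, and their reads cannot be told apart.

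HAS3 (chromosome 16, 69139556 to 69152622, plus strand, GRCh37) had 2.19 and 1.95 FPKM in TGF-β-treated SOX4-shRNA cells, 3.55 and 3.90 FPKM in untreated SOX4-shRNA cells, 0.988 and 1.20 FPKM in scrambled-shRNA cells given TGF-β, and 3.41 and 2.62 FPKM in untreated scrambled-shRNA cells. TGF-β-treated libraries were below untreated ones in both kinds of cell, and the TGF-β-treated SOX4-shRNA pair lay between the TGF-β-treated and the untreated scrambled-shRNA pairs. HAS3 fell with TGF-β, with log2(FPKM + 1) fold changes of -0.62 ± 0.14 in SOX4-shRNA cells (limma adjusted p = 0.039) and -0.94 ± 0.14 in scrambled-shRNA cells (adjusted p = 0.011). The call in SOX4-shRNA cells was lost without any SOX4-shRNA library or either TGF-β-treated scrambled-shRNA library (adjusted p = 0.076 to 0.15), and that in scrambled-shRNA cells without either TGF-β-treated or replicate 1 of the untreated scrambled-shRNA libraries (adjusted p = 0.083 to 0.11). In the fit of 12013 genes neither was called (adjusted p = 0.12 and 0.056), and that in SOX4-shRNA cells was also lost without the floor, with the replicate block and with only the compared groups (adjusted p = 0.084 to 0.13). On knockdown its values were 0.56 ± 0.14 with TGF-β (adjusted p = 0.085) and 0.24 ± 0.14 without (adjusted p = 0.41). The order of the synthases thus differed between the groups: mean HAS3 was above mean HAS2 in TGF-β-treated and untreated SOX4-shRNA cells (2.07 against 0.153 and 3.72 against 0.0900 FPKM) and in untreated scrambled-shRNA cells (3.02 against 0.813 FPKM), and below it in TGF-β-treated scrambled-shRNA cells (1.09 against 2.19 FPKM), where both HAS2 libraries exceeded both HAS3 libraries.

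**Figure D3:**
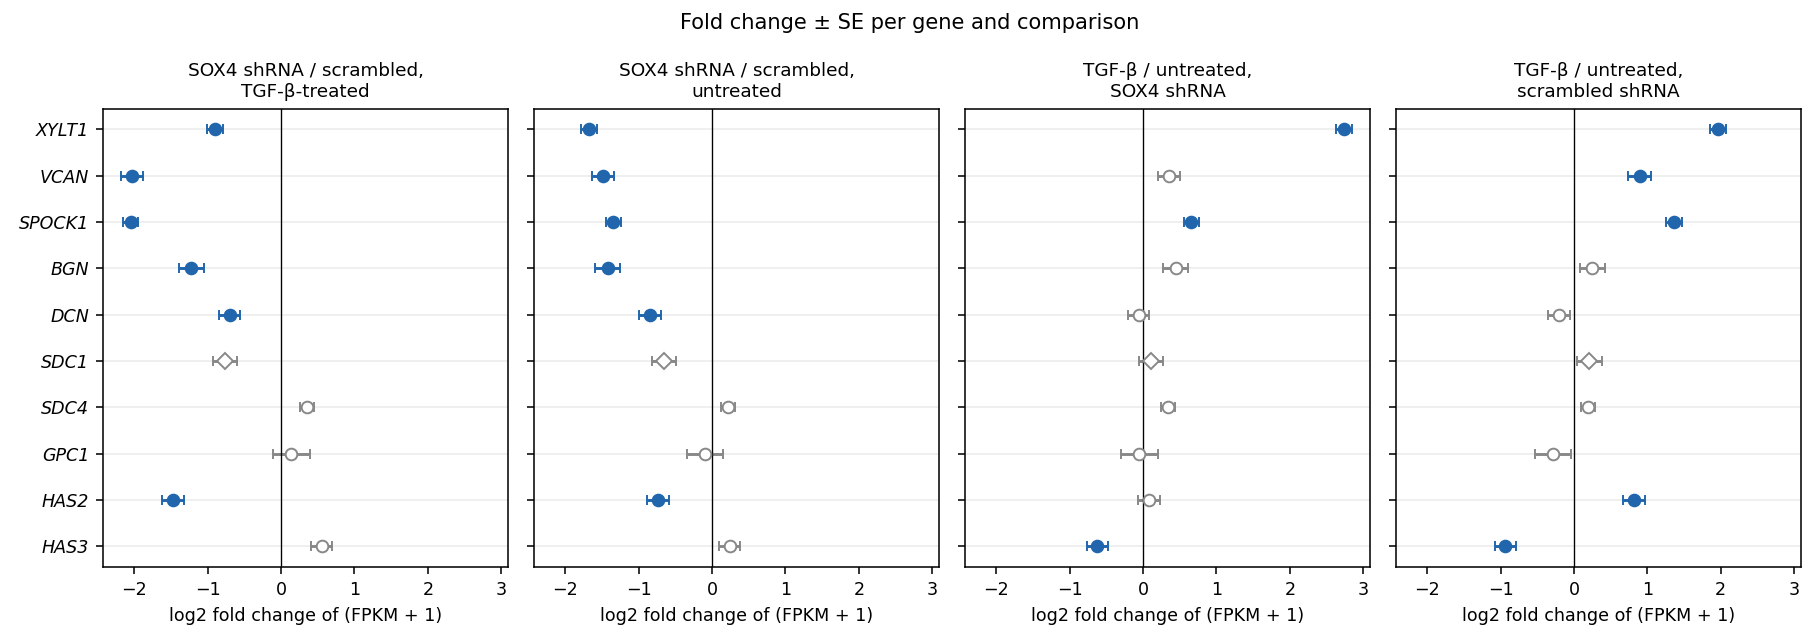
Log2 fold change of (FPKM + 1) ± SE of the 10 genes in the 4 comparisons (filled, adjusted p under 0.05; the diamond is 1 transcript of SDC1, from the fit of all kept genes). VCAN, SPOCK1, BGN, DCN, XYLT1 and HAS2 lie left of 0 in both knockdown panels, as does the SDC1 transcript, which was not called. HAS3 lies left of 0 in both TGF-β panels.

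Counted together, 6 of the 9 fitted members fell on SOX4 knockdown in TGF-β-treated cells and 6 in untreated cells, and none rose. Of all 5099 genes, 3.86% were called with TGF-β present (2.77% fell and 1.1% rose) and 4.45% without it (3.33% fell and 1.12% rose). The 6 were XYLT1, VCAN, SPOCK1, BGN, DCN and HAS2 in both comparisons. The 2 comparisons use different libraries, but the set was chosen with such values known and 3 of the 6 entered the fit through scrambled-shRNA libraries, so the counts are a description. For TGF-β, 3 of 9 were called in SOX4-shRNA cells, where 8.12% of all genes were. XYLT1 and SPOCK1 rose there (5.81% of all genes did) and HAS3 fell (2.31%). In scrambled-shRNA cells 5 of 9 were called, where 7.35% of all genes were, and XYLT1, SPOCK1, VCAN and HAS2 rose (5.02%) while HAS3 fell (2.33%). In the fit of 12013 genes 2 members were called for TGF-β in each kind of cell. There 236 genes rose and 53 fell in SOX4-shRNA cells, and 158 rose and 48 fell in scrambled-shRNA cells. The median log2 fold change of the 9 was -0.90 on knockdown with TGF-β and -0.84 without, against 0.016 and -0.0066 over all genes, and it was 0.34 with TGF-β in SOX4-shRNA cells and 0.25 in scrambled-shRNA cells, against -0.042 and -0.031. These medians include the 3 genes selected on their values and are a description too. On knockdown the median was the value of XYLT1 itself with TGF-β and that of DCN itself without.

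No member was called for the difference between the TGF-β responses, a test by which limma called 1 of 5099 genes (0.0196%). The count was 4 members at an unadjusted p under 0.05 (XYLT1, SPOCK1, VCAN and HAS2), where that of all genes was 2.98%, and 1 member (XYLT1) by limma-voom on whole reads. Nothing is read from these counts, since XYLT1 and SPOCK1 were selected on their values and VCAN and HAS2 entered through scrambled-shRNA libraries. The sign was positive for XYLT1 and negative for SPOCK1, VCAN and HAS2 on the log2(FPKM + 1) scale, and that of VCAN was positive on whole reads.

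**Figure D4:**
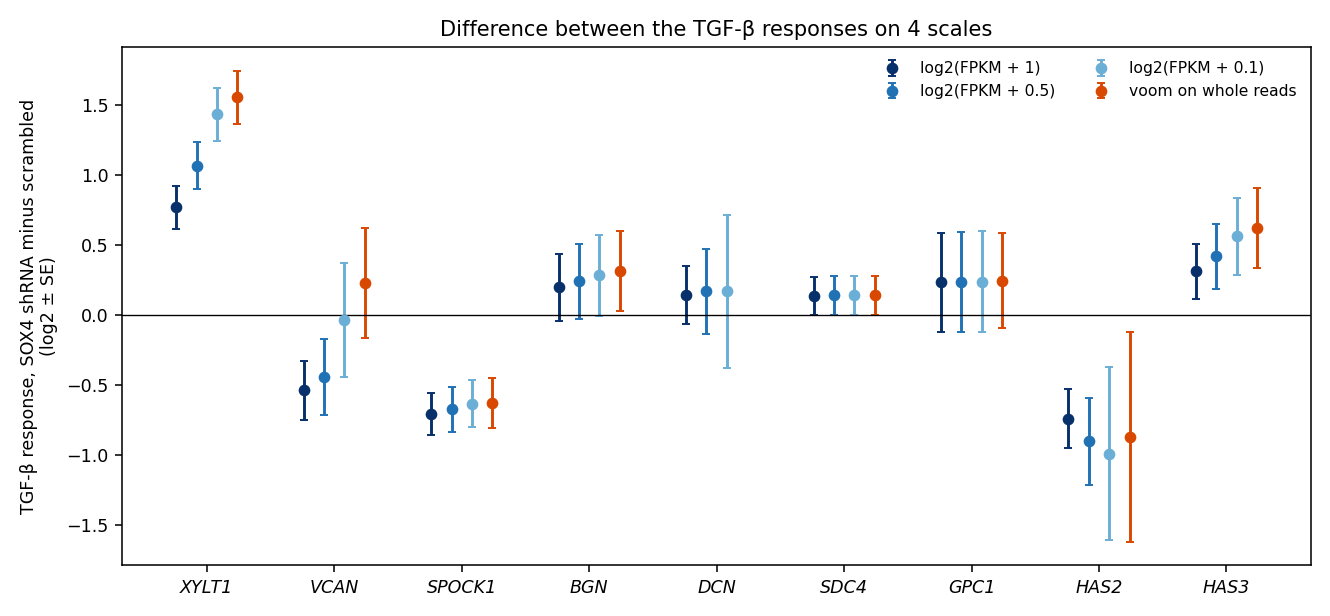
Difference between the TGF-β responses (SOX4-shRNA minus scrambled-shRNA cells, log2 ± SE) of 9 genes on 4 scales, with 1, 0.5 or 0.1 FPKM added or on whole reads (no whole reads for DCN). XYLT1 goes from 0.77 to 1.56 and VCAN from -0.54 to 0.23 across the scales, while SPOCK1 stays between -0.71 and -0.62.

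The genes with profiles most like those of XYLT1 and SPOCK1 were found as the smallest root mean square difference in centred log2(FPKM + 1) over the 8 libraries. For XYLT1 they were RHOB, a small GTPase (0.42), TGFBI, a TGF-β-induced matrix protein (0.53), and VASN, a membrane glycoprotein (0.58), where the median gene was at 1.38. RHOB had 46.0 and 59.0 FPKM with TGF-β and 15.1 and 14.1 without it in SOX4-shRNA cells, against 91.4 and 98.6 with TGF-β and 36.6 and 30.7 without it in scrambled-shRNA cells. With TGF-β, TGFBI had 1023 and 1112 FPKM in SOX4-shRNA cells against 999 and 1009 FPKM in scrambled-shRNA cells. VASN had 11.6 and 16.0 FPKM against 14.2 and 16.8 FPKM there. Unlike XYLT1 and RHOB, TGFBI was thus not lower on knockdown with TGF-β, and the VASN pairs overlapped. For SPOCK1 they were CYP27C1, a cytochrome P450 (0.21), MAP1B, a microtubule-associated protein (0.26), and COL1A2, a chain of type I collagen (0.29), where the median gene was at 1.03. CYP27C1 had 2.33 and 2.66 FPKM with TGF-β and 1.16 and 1.19 without it in SOX4-shRNA cells, against 10.4 and 9.40 with TGF-β and 4.81 and 5.44 without it in scrambled-shRNA cells.

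The other genes of glycosaminoglycan assembly were taken from 7 lists, which held 98 genes that are not members, and 28 of these were fitted. Genes under the floor, with several transcripts or without settled whole reads were left out, so a gene not fitted is not shown to be low. On knockdown 3 of the 28 fell with TGF-β and 2 without, where 2.77% and 3.33% of all genes fell, and none rose. With TGF-β 5 of the 28 rose in SOX4-shRNA cells and 2 in scrambled-shRNA cells, where 5.81% and 5.02% of all genes rose, and none fell. These counts include TNFAIP6, which reached 1 FPKM only in TGF-β-treated scrambled-shRNA cells, and SRGN, which reached it in 1 SOX4-shRNA library. The medians of the 28 were -0.030 and -0.22 on knockdown with and without TGF-β, and 0.16 and 0.031 for TGF-β in SOX4-shRNA and scrambled-shRNA cells, where those of all genes are given above. Among the linker enzymes 3 of the 6 that are not members were fitted, and these were not called in any comparison. XYLT1 was selected on its values, so nothing is read from its standing in that list.

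Of the chondroitin and dermatan sulfate core proteins, CSPG4, a membrane proteoglycan, rose with TGF-β, with log2(FPKM + 1) fold changes of 1.66 ± 0.18 in SOX4-shRNA cells (limma adjusted p = 0.0019) and 0.93 ± 0.18 in scrambled-shRNA cells (adjusted p = 0.024). It had 9.48 and 12.4 FPKM with TGF-β and 3.32 and 2.25 without it in SOX4-shRNA cells, against 7.23 and 7.88 with TGF-β and 3.69 and 3.31 without it in scrambled-shRNA cells, and its knockdown values were 0.47 ± 0.18 with TGF-β (adjusted p = 0.22) and -0.26 ± 0.18 without (adjusted p = 0.47). SRGN, a proteoglycan of secretory granules, had 0.272 and 1.69 FPKM with TGF-β and 0.961 and 0.735 without it in SOX4-shRNA cells. In scrambled-shRNA cells SRGN had 4.41 and 5.68 FPKM with TGF-β and 3.57 and 3.61 without it. It met the floor of 1 FPKM through the scrambled-shRNA libraries, so its log2 differences are given without a p-value. They were -1.699 ± 0.31 for knockdown with TGF-β and -1.32 ± 0.31 without. In the hyaluronan list TNFAIP6, whose product binds hyaluronan and transfers heavy chains to it, had 0.410 and 0.270 FPKM with TGF-β and 0.177 and 0.211 without it in SOX4-shRNA cells, against 1.65 and 1.67 with TGF-β and 0.244 and 0.583 without it in scrambled-shRNA cells. Since it entered the fit through the TGF-β-treated scrambled-shRNA cells, its log2 differences are given without a p-value, and they were 0.92 ± 0.16 for TGF-β in scrambled-shRNA cells and -0.99 ± 0.16 for knockdown with TGF-β. HAPLN3, a link protein of hyaluronan and proteoglycans, rose with TGF-β in SOX4-shRNA cells by 0.84 ± 0.19 (adjusted p = 0.039).

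Chains are built and sulfated in the Golgi by further enzymes. Of the 7 fitted heparan sulfate chain enzymes, the 3-O-sulfotransferase HS3ST2 rose with TGF-β in SOX4-shRNA cells by 0.85 ± 0.13 (limma adjusted p = 0.0092), and HS3ST1, another of these, fell on knockdown without TGF-β, at -1.01 ± 0.19 (adjusted p = 0.030). Of the 7 fitted chondroitin and dermatan sulfate chain enzymes, the 6-O-sulfotransferase CHST3 rose with TGF-β in SOX4-shRNA cells by 0.58 ± 0.11 (adjusted p = 0.024). In the donor supply list GFPT2, an isoform of the first enzyme of UDP-N-acetylglucosamine synthesis, fell on knockdown, at -0.85 ± 0.14 with TGF-β (adjusted p = 0.022) and -0.79 ± 0.14 without (adjusted p = 0.026). UAP1, the last enzyme of that route, rose with TGF-β in SOX4-shRNA cells by 0.70 ± 0.15 (adjusted p = 0.033). The 2 fitted heparan sulfate core proteins that are not members were not called in any comparison, like SDC4 and GPC1.

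**Figure D5:**
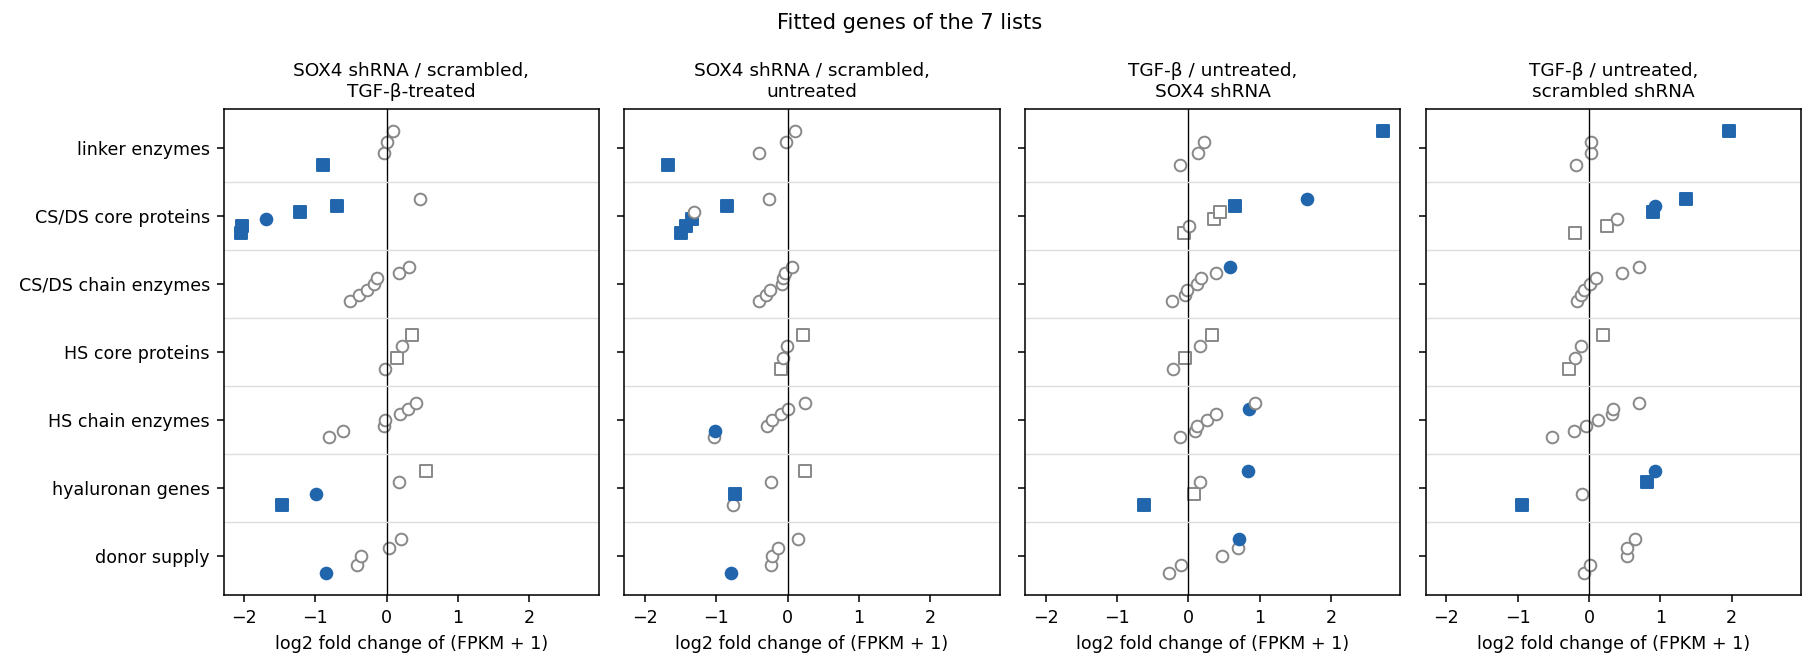
Log2 fold change of (FPKM + 1) of the fitted genes of the 7 lists in the 4 comparisons (squares, the genes followed here; circles, other genes; filled, adjusted p under 0.05; CS/DS, chondroitin and dermatan sulfate; HS, heparan sulfate). XYLT1, which was selected on its values, lies apart from the 3 other fitted linker enzymes in every panel, and none of the few fitted heparan sulfate core proteins is filled.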

How the data were processed

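Per the labels' protocols, libraries were made from total RNA with a stranded kit that depletes ribosomal RNA, though the molecule label is polyA RNA, and reads were single and 75 nt long. The build hg19 and the tools Cufflinks 2.2.1, TopHat2 2.0.9 and Cuffdiff are named, with no order, per the submitters' processing notes. The deposited table of 48175 RefSeq transcripts was taken as the authors' FPKM, and 97.76% of transcripts were matched to symbols. Entries from 1 up to 1000 FPKM had lost their decimal mark, except those with under 3 decimals, and 13.9% had damaged exponents, taken as below 1e-04 FPKM and set to 0.

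For a gene with 1 transcript, FPKM times the length, less an offset of the library, and divided by a factor of the library gives whole reads. Lengths were searched for at least 6 of 8 whole values within 0.003 reads plus rounding. This succeeded for 90.7% of 5651 genes, and for 0.37% with random last digits. A reading 10 times too high is also whole, so readings were weighed with the replicate spread and effect size, and used at a posterior of at least 0.95. This weighing favours small effects. VCAN and HAS3 were restored as sums of 2 transcripts, and DCN as a sum without whole reads. The members and lists were chosen with earlier results of these data known.

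limma 3.58.1 (R 4.3.3) fitted log2(FPKM + 1) with an intensity trend and 4 residual degrees of freedom. The steps were tested on simulated data. Named genes were SOX4, the members, up to 4 called genes per list and direction, and the 3 profiles most like XYLT1 and SPOCK1. No column of values was left out (0). Alternatives were 2 pseudocounts, 2 filters, rescaling, a fit without trend, the compared groups alone, a replicate block, all kept genes, whole reads with voom, and leaving out each library. A crossed block was added after seeing the data. Replicates differed by more than counting noise, with a median chi-square per gene of 5.64 and 5.79 in TGF-β-treated and untreated SOX4-shRNA cells and 1.26 and 2.49 in TGF-β-treated and untreated scrambled-shRNA cells, while the fit used 1 spread. Coordinates are from GENCODE 44 on GRCh37, which is hg19.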

Additional observations from a re-analysis of the deposited data

How the results depend on the processing

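Of 20 calls of members, 9 held under every alternative in which the gene was fitted. These were both knockdown calls of VCAN, the call of HAS2 for knockdown with TGF-β, and calls of XYLT1 and SPOCK1. Since XYLT1 and SPOCK1 were selected on their values, nothing is read from the count. The number of members called for TGF-β in scrambled-shRNA cells was 5, and it was 3 with 0.1 FPKM added, 3 at a floor of 5 FPKM and 2 with all kept genes. The 3 at that floor were XYLT1, SPOCK1 and VCAN, and HAS2 and HAS3 were too low to be fitted there. In SOX4-shRNA cells it was 3, and 1 with only the compared groups. For the difference of the responses it was 0, and 1 on whole reads. Leaving out each library gave 2 to 5 for TGF-β in scrambled-shRNA cells, 2 to 3 in SOX4-shRNA cells, 3 to 6 for knockdown without TGF-β and 3 to 6 with it, and 0 throughout for the difference.

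Signs turned for the VCAN difference on whole reads (0.23), and otherwise only without 1 library. Over the libraries left out, GPC1 ran from -0.39 to 0.29 for TGF-β in SOX4-shRNA cells (0.17 without replicate 1 of the TGF-β-treated ones), from -0.082 to 0.36 for knockdown with TGF-β, from -0.44 to 0.25 without it (0.08 without replicate 1 of untreated scrambled-shRNA cells), and from -0.11 to 0.58 for the difference. BGN ran from -0.029 to 0.43 for the difference. For TGF-β in SOX4-shRNA cells DCN ran from -0.18 to 0.058 and HAS2 from -0.026 to 0.18. The cause was not tested.

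The labels give a replicate number and no shared batch or culture. With the replicate block 5 members were called for TGF-β in scrambled-shRNA cells, 2 in SOX4-shRNA cells, 5 for knockdown without and 5 with TGF-β, and 0 for the difference. Deviations of same-numbered libraries correlated at -0.55 and -0.11 between TGF-β-treated and untreated libraries of SOX4-shRNA and scrambled-shRNA cells, and at 0.19 and 0.47 between SOX4-shRNA and scrambled-shRNA libraries with and without TGF-β. With numbers crossed in the treated libraries, 5 and 5 members were called for TGF-β in SOX4-shRNA and scrambled-shRNA cells, 6 and 8 for knockdown without and with TGF-β, and 0 for the difference. Counts over all genes with TGF-β in scrambled-shRNA cells were 256 higher and 119 lower, 131 and 24 with the block and 617 and 582 with it crossed. Depth limits HAS2 and VCAN in SOX4-shRNA cells, with 3 to 11 and 22 to 89 reads.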
